A study of Bos taurus with 29 samples.

Results

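The heat shock proteins and the DNAJ co-chaperones were taken from the gene count table of bovine corpus luteum as every row whose symbol starts with HSPA, HSPB, HSPD, HSPE or HSPH, or with DNAJA, DNAJB or DNAJC, followed by a digit, or with HSP90. This rule uses names only and found 65 of 19112 genes. They comprise 14 members of the HSP70 and HSP110 families, 3 of the HSP90 family, 2 mitochondrial chaperonins, 5 small heat shock proteins, 4 DNAJA, 10 DNAJB and 27 DNAJC co-chaperones. The filter on low counts kept 64 of them. DNAJC5G, with 58 counts in total over the 12 libraries, did not pass it.

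Chaperones of these families bind unfolded protein and let it fold again. HSP70 proteins do so in cycles driven by ATP, which DNAJ proteins start through their J domain and which HSP110 proteins and BAG proteins help to end by nucleotide exchange, while HSP90 takes over later folding steps and small heat shock proteins hold unfolded protein without ATP. When unfolded protein builds up in the cytosol, the transcription factor HSF1 is released and raises the inducible members, and a separate response of the endoplasmic reticulum (ER) raises the chaperones of that compartment. The corpus luteum is the gland that forms from the ovulated follicle and makes progesterone, for which its steroidogenic cells carry cholesterol into mitochondria.

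The study addressed signals between embryo, endometrium and corpus luteum, and its title names small extracellular vesicles as their carriers. The corpus luteum samples are labelled as Bos taurus tissue from a slaughterhouse, as polyA RNA, in 4 groups of 3 libraries, and the labels give no age, breed or cycle stage. The groups stand under a label called batch as NC, CM_EE, CM_EE_AI and CM_EE_IVF. NC was taken as the control, whose titles carry the code DMEN, which the labels do not spell out. CM, not spelled out either, was read as medium conditioned by endometrial explants, with EE for explants alone, EE_AI for explants with an in vivo embryo and EE_IVF for explants with an in vitro embryo, since the titles of these samples carry End, End_vivo and End_vitro. What the 4 groups share, such as the culture that the control samples went through, is not described in the labels.

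Each group had 3 libraries, numbered R2, R4 and R5. What a number marks is not labelled, nor is whether animals were separate. Every p-value therefore measures no more than the spread between these samples, which may be technical, and a test between numbers compares these 3 sets of 4 libraries and not animals in general. The labels name no sequencing run, and the index numbers in the titles of the R2 samples lie apart from those of R4 and R5. Whether R2 was sequenced apart from the others is not stated. R4 and R5 have a pair of titles for each column of the table, joined in a way the sources used here do not state. The libraries held 16536797 to 25747637 counts. Mitochondrial transcripts took 49.5 to 55.9% of the counts in R2, 44.4 to 48.9% in R4 and 54.8 to 64.00% in R5, and ribosomal RNA took 13.8 to 20.9% over the 12 libraries. Ribosomal RNA of the mitochondrial genome was counted in both shares, so they cannot be added. Levels are CPM, counts relative to the size of the library, with TMM scaling. CPM are not corrected for transcript length, so levels are compared between libraries. Sums over genes, shares of the members' counts and the choice of named members by mean CPM carry this limit.

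The labelled tissue was checked against markers. All 6 markers of luteal steroidogenic cells were present in every library, and STAR, which carries cholesterol into mitochondria, was between 138 and 986 CPM. The 6 summed to 1353 to 2380.3 CPM in R2, 1628 to 6159 in R4 and 1367 to 2068 in R5. The 5 endothelial markers summed to 1023 to 1313 CPM in R2, above 554 to 746 in R4 and 579.5 to 799 in R5. They did not all go 1 way. VWF, CDH5 and PECAM1 were lower in R4 and R5 than in R2 at an adjusted p under 0.05 (edgeR). TEK was higher in both, with log2 fold changes of 0.53 and 1.01, and KDR did not pass. The 5 fibroblast markers summed to 603 to 966, 239 to 949 and 308 to 374 CPM and the 6 smooth muscle and pericyte markers to 279 to 389.7, 302 to 567 and 169.8 to 241 CPM in R2, R4 and R5. Macrophage and T cell markers, 4 each, summed to at most 41.02 and 7.06 CPM. The 4 markers of red blood cells in the table summed to 33.5 to 61.00 CPM in R2, 2.87 to 5.89 in R4 and 2.33 to 4.39 in R5, and AHSP, the haemoglobin stabilising protein, was at 0 in some libraries. HBA and HBA1 were lower in R4 and R5 than in R2, while HBB had log2 fold changes of 2.04 and 1.81 and did not pass. These sums differed between the numbers, and the part of such cells in the differences between numbers below was not tested. In bulk tissue, fewer cells of a type and less RNA per cell cannot be told apart.

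The summed level of the 64 members was lowest in all 4 R2 libraries and highest in the R4 library of every group. Their summed level was 7187, 24528 and 18118 CPM in R2, R4 and R5 of NC. It was 7448, 21724 and 10827 CPM in CM_EE, 7195, 17583 and 12460.2 CPM in CM_EE_AI and 7900.3, 16740.2 and 15059 CPM in CM_EE_IVF, in the same order. The R2 libraries lay within 7187 to 7900.3 CPM, while R4 and R5 spread over 16740.2 to 24528 and 10827 to 18118 CPM. Without the HSF1 target chaperones, which are listed below, the sums of R5 overlapped with those of R2. In counts, the members took 1.35 to 1.63% of all counts outside mitochondrial transcripts in R2, 3.37 to 5.09% in R4 and 2.66 to 3.79% in R5. HSPA1A, the major inducible cytosolic HSP70, alone took 13.1 to 16.95% of the members' counts in R2, 22.2 to 38.9% in R4 and 27.6 to 30.1% in R5. The 4 members with the most counts together took 57.0 to 71.9% over all libraries, so the sums mostly follow a few genes. The heat map of members by library shows this split between numbers.

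**Figure D1:**
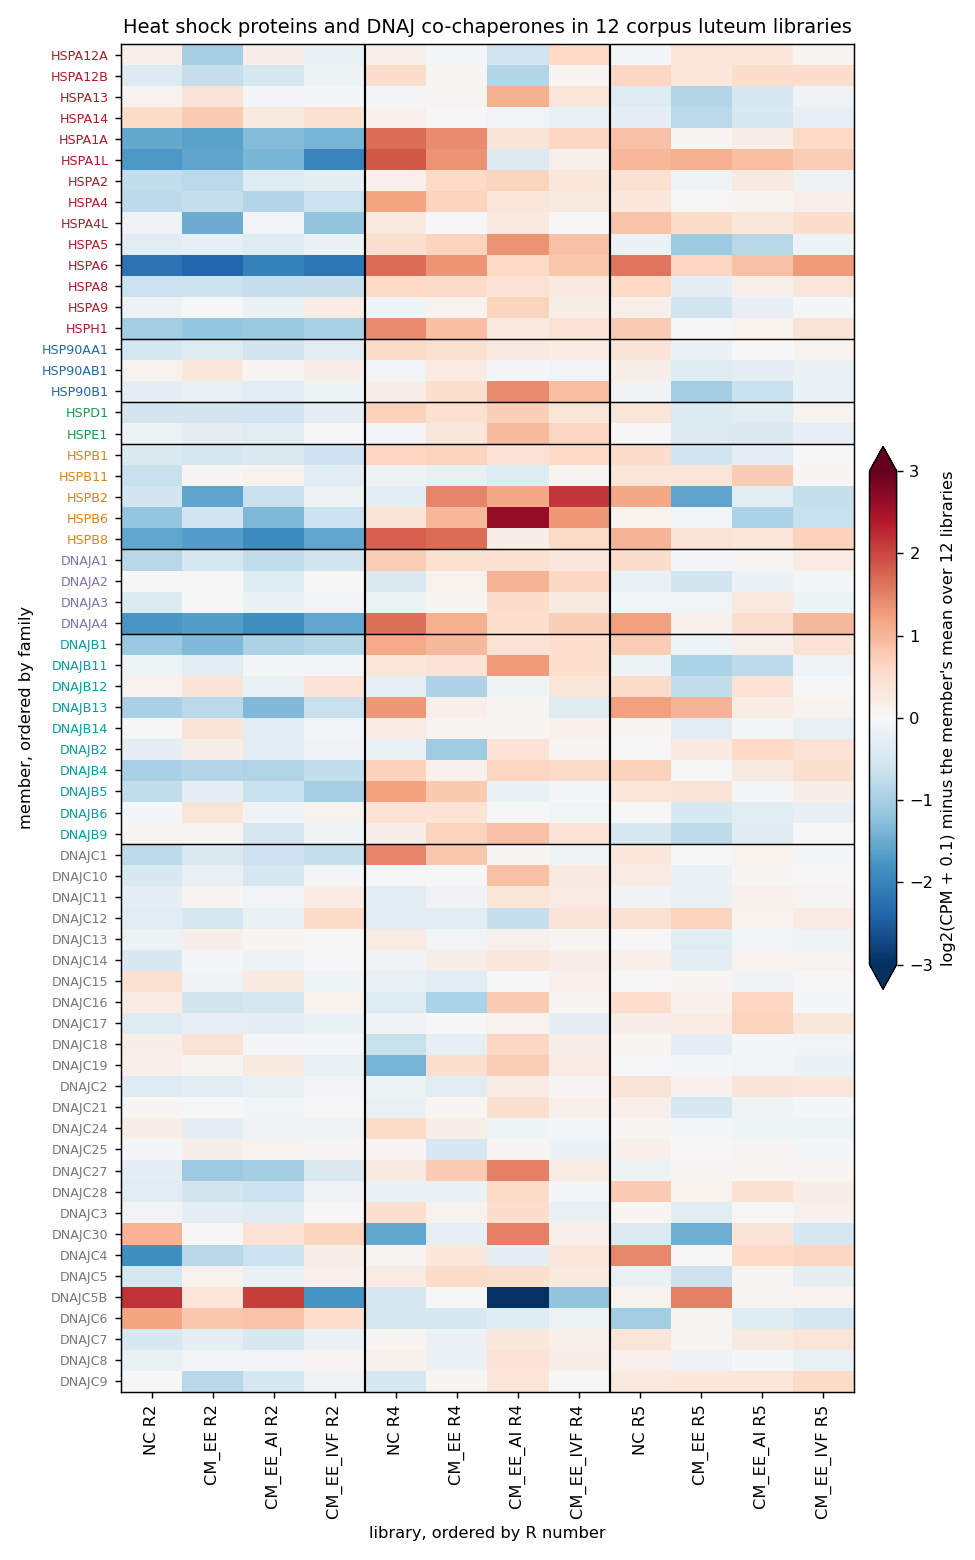
Level of each of the 64 tested members (rows, grouped by family) in the 12 libraries (columns, grouped by R number), as log2(CPM + 0.1) minus the member's mean over the libraries. The rows of HSPA1A, HSPA6, HSPH1, HSPB8, DNAJA4 and DNAJB1 are blue in R2 and mostly red in R4 and R5, and most DNAJC rows are pale.

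The comparisons of the groups ask whether conditioned medium, and an embryo in the culture it came from, went with another chaperone level in the corpus luteum. By edgeR's quasi-likelihood test with Benjamini-Hochberg adjustment, 0 of 64 members passed in each of the 6 comparisons, against 0% of the 18939 genes tested in each of them. No member reached even an unadjusted p under 0.05 (0 of 64 in each comparison), against 0.75% of all genes in CM_EE against NC, 1.12% in CM_EE_AI against NC and 1.48% in CM_EE_IVF against NC. The share was 1.28% in CM_EE_AI against CM_EE, 1.5% in CM_EE_IVF against CM_EE and 0.671% in CM_EE_IVF against CM_EE_AI. DESeq2 also called 0 members in each comparison, against 0% of all genes. The edgeR model of groups alone leaves the differences between the R numbers in its spread. Its biological coefficient of variation was 0.519, against 0.389 with the numbers in the model. The lack of low unadjusted p therefore does not show that the groups were alike. With the R number as a block, 0 of 64 members passed in each of the 6 comparisons, against 0% of all genes.

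Within a group, the 3 libraries spread widely. HSPA1A was at 5342 ± 4249 CPM in NC, 4015 ± 3576 in CM_EE, 2857 ± 1437 in CM_EE_AI and 3420.4 ± 1975 in CM_EE_IVF (SD, n = 3 each), and the ranges of the 4 groups overlapped. Its log2 fold change from NC was -0.41 in CM_EE, with a 95% interval from -2.24 to 1.42. It was -0.90 in CM_EE_AI, from -2.74 to 0.94, and -0.64 in CM_EE_IVF, from -2.48 to 1.19. With 3 libraries a group and the R numbers left in the spread, these intervals hold differences in either direction. Without NC R4, the value turned to 0.31 in CM_EE and 0.075 in CM_EE_IVF. HSPA5, the main HSP70 of the ER, was at 613 ± 193, 579 ± 342, 772 ± 644 and 723 ± 327 CPM in NC, CM_EE, CM_EE_AI and CM_EE_IVF (SD, n = 3 each), with overlapping ranges. Its log2 fold change of 0.33 in CM_EE_AI against NC turned to -0.61 without CM_EE_AI R4. HSP90AA1, the inducible cytosolic HSP90, was at 2963 ± 1043, 2583 ± 830.4, 2471 ± 743 and 2619.5 ± 485 CPM in the same order (SD, n = 3 each), and its log2 fold changes from NC lay between -0.26 and -0.18.

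In CM_EE against NC, 19 of 64 members had a log2 fold change above 0, and the median was -0.14 for the members and -0.026 for all genes. The members with the lowest p were DNAJC16 at -0.56, DNAJC24 at -0.32, DNAJC3 at -0.35 and DNAJB12 at -0.50. DNAJC24 takes part in diphthamide synthesis, and DNAJC3 and DNAJB12 act at the ER. The ranges of the 2 groups did not overlap for 1 of 64 members, DNAJA3, a mitochondrial co-chaperone at 14.8, 15.2 and 13.9 CPM in R2, R4 and R5 of CM_EE and 10.98, 13.2 and 13.8 CPM in NC. The share of all genes without overlap was 2.69%.

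In CM_EE_AI against NC, 30 of 64 members lay above 0, with a median of -0.038 against 0.031 for all genes. The lowest p belonged to DNAJA3 at 0.45, DNAJC11 at 0.38, DNAJC24 at -0.41 and DNAJB13 at -1.07. DNAJC11, a mitochondrial membrane protein, was at 21.9, 29.8 and 25.6 CPM in R2, R4 and R5 of CM_EE_AI and 19.4, 18.5 and 21.6 CPM in NC, so each library of the former was above each of the latter. DNAJC24 was at 10.4, 10.2 and 10.2 CPM and 12.8, 16.6 and 11.6 CPM, all lower in CM_EE_AI. These were 2 of 64 members without overlap, against 3.93% of all genes.

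In CM_EE_IVF against NC, 29 of 64 members lay above 0, with a median of -0.052 against -0.040. The lowest p belonged to DNAJC11 at 0.41, DNAJC1 at -0.88, DNAJB13 at -1.15 and DNAJC5B at -2.05. DNAJC11 at 27.1, 27.6 and 24.6 CPM and DNAJC24 at 10.5, 10.8 and 10.2 CPM in R2, R4 and R5 did not overlap with NC, the former above it and the latter below. The share of all genes without overlap was 5.73%. The comparisons with NC share its 3 libraries, so DNAJC11 and DNAJC24 were set against the same control values in CM_EE_AI and CM_EE_IVF.

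Between the groups with conditioned medium, 42 of 64 members lay above 0 in CM_EE_AI against CM_EE, with a median of 0.16 against 0.058 for all genes. The lowest p belonged to DNAJC16 at 0.80, DNAJC30 at 1.41, DNAJB5 at -0.66 and DNAJB11 at 0.59. DNAJC30, a mitochondrial protein, was the 1 member of 64 without overlap, at 1.57, 3.45 and 1.53 CPM in R2, R4 and R5 of CM_EE_AI and 1.15, 0.954 and 0.351 CPM in CM_EE, against 3.34% of all genes. In CM_EE_IVF against CM_EE, the median was 0.061 against -0.023. DNAJC5B at -1.74, DNAJB12 at 0.60, DNAJC11 at 0.26 and DNAJB5 at -0.57 had the lowest p there. DNAJC11 was the 1 member without overlap, against 5.6% of all genes.

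The comparison of CM_EE_IVF with CM_EE_AI sets the embryo produced in vitro against that produced in vivo. The median of the members was -0.034 and that of all genes -0.073, with 29 of 64 members above 0. DNAJC12 at 0.65, DNAJC5B at -1.81, DNAJC30 at -0.73 and DNAJC27 at -0.58 had the lowest p. DNAJC5B was at 0.127, 0.242 and 0.728 CPM in R2, R4 and R5 of CM_EE_IVF and 3.14, 0 and 0.716 CPM in CM_EE_AI, and its value turned to 0.045 without CM_EE_AI R2. DNAJC27 turned to 0.37 without CM_EE_AI R4. DNAJC12, a co-chaperone of aromatic amino acid hydroxylases, was at 4.08, 3.55 and 3.21 CPM and 2.33, 1.64 and 2.91 CPM and was the 1 member without overlap, against 2.32% of all genes.

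Between the numbers, many members passed the test. In a model with group and number, 31 of 64 members passed the F test over R2, R4 and R5 at an adjusted p under 0.05, against 26.7% of all genes. In R4 against R2, 24 members were higher and 2 lower, against 8.72% and 4.93% of all genes. In R5 against R2, 19 were higher and 2 lower, against 11.5% and 9.26%. In R5 against R4, 0 were higher and 9 lower, against 5.58% and 8.67%, with 3 members higher at an unadjusted p under 0.05 and 0 higher by DESeq2. The counts by family and by list below are to be read beside the same shares of all genes. The median log2 fold change of the members was 0.44 in R4 against R2, 0.43 in R5 against R2 and -0.24 in R5 against R4, beside 0.041, 0.085 and 0.085 for all genes. All 4 R2 libraries lay below all 8 of R4 and R5 for 19 members, against 5.02% of all genes, and above them for 2, against 4.78%. The counts in R5 rest in part on single libraries: without CM_EE R5, 13 members passed in R5 against R2, and without CM_EE R4, CM_EE R5, CM_EE_AI R4, CM_EE_AI R5 or CM_EE_IVF R5, 3 to 5 passed in R5 against R4.

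**Figure D2:**
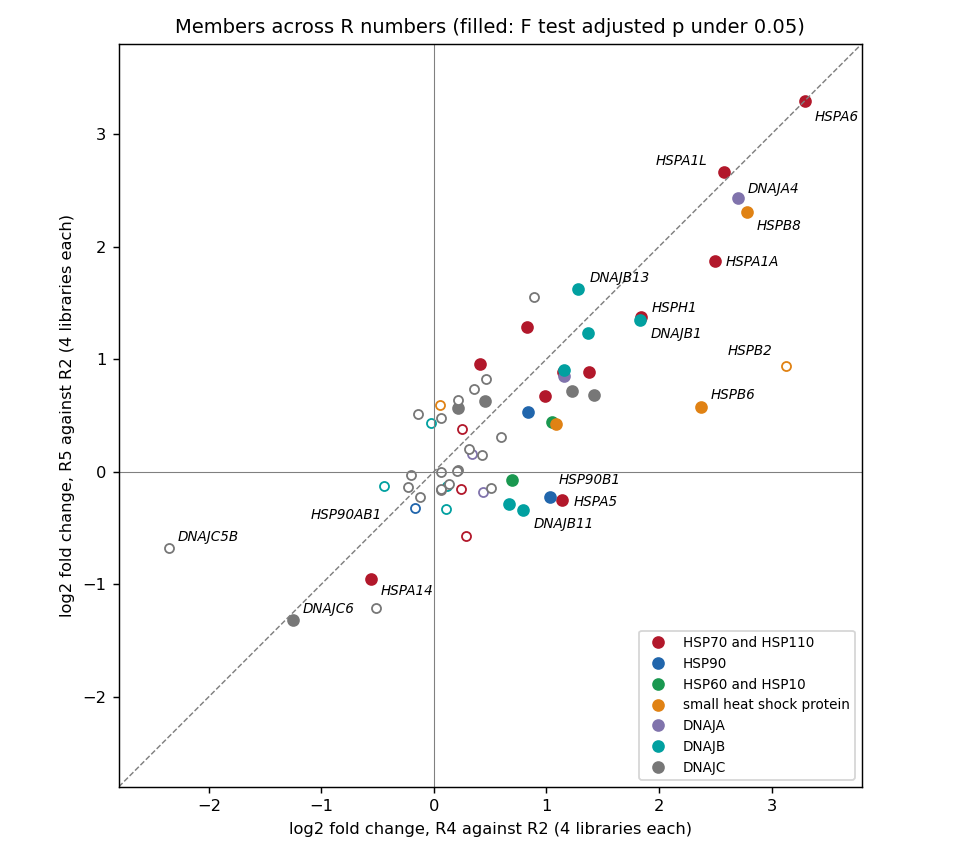
Log2 fold change of each of the 64 members in R4 against R2 (horizontal) and in R5 against R2 (vertical), coloured by family, with filled points for the 31 members past the F test. The 2 axes share the R2 libraries. HSPA6 lies at the top right, HSPA5, HSP90B1 and DNAJB11 lie to the right of 0 and just below the horizontal line, and DNAJC6 and HSPA14 lie at the lower left.

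The HSP70 and HSP110 families held the largest number of members past the test of all roles. In R4 against R2, 8 of 14 were higher and 1 lower, and in R5 against R2, 9 were higher and 1 lower. HSPA1A was at 1034, 975, 1220.0 and 1140.1 CPM in the R2 libraries of NC, CM_EE, CM_EE_AI and CM_EE_IVF. It was at 9531, 7956, 3909 and 4585 CPM in R4 and 5462, 3113, 3442 and 4536 CPM in R5, in the same order of groups. No library of R4 or R5 overlapped with R2, and the log2 fold change was 2.50 (SE 0.28) in R4 and 1.88 (SE 0.27) in R5 (adjusted p of the F test 0.000172, edgeR). HSPA6, an HSP70 that in many species is made almost only under stress, was at 70.5, 62.6, 79.04 and 72.2 CPM in R2, 1037, 809, 490.3 and 565 in R4 and 989, 507, 601 and 783 in R5. It had the largest fold change of the 64 members in both R4 and R5, at 3.30 (SE 0.24) and 3.29 (SE 0.24) (adjusted p 9.25e-06, edgeR).

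HSPH1, an HSP110 and a nucleotide exchange factor for HSP70, was at 374, 348, 359 and 392 CPM in R2, 2078, 1443, 940.2 and 1049.8 in R4 and 1318, 763, 832 and 1010.4 in R5, again without overlap between R2 and the others. Its log2 fold changes were 1.84 (SE 0.21) in R4 and 1.37 (SE 0.20) in R5 (adjusted p 0.000205, edgeR). HSPA4, of the same HSP110 group, rose by 1.38 and 0.89 in R4 and R5, and its relative HSPA4L by 1.28 in R5 alone past the test (adjusted p 0.0138, against 0.111 in R4, edgeR). HSPA8, the constitutive cytosolic HSP70, was at 967, 967, 910.3 and 929.9 CPM in R2, 2285, 2240.1, 2011 and 1834 in R4 and 2261, 1246, 1658 and 1918 in R5, with log2 fold changes of 1.15 and 0.89. The 4 R2 libraries lay below all the others for each of these genes.

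HSPA1L and HSPA2, which are best known from the testis, were also higher in both numbers, HSPA1L by 2.58 and 2.66 and HSPA2 by 0.99 and 0.68 on the log2 scale. The call of HSPA2 in R5 was lost in 6 of 12 fits that leave out 1 library, between 0.31 and 0.83, and with RLE factors in place of TMM. HSPA1L was at 1.25, 1.39, 1.61 and 1.02 CPM in R2, 16.2, 11.2, 3.28 and 4.89 in R4 and 8.73, 9.23, 8.30 and 7.37 in R5. HSPA1L is the next gene to HSPA1A in the RefSeq assembly ARS-UCD2.0, where HSPA1B is listed as another name of HSPA1A. The inducible HSP70 genes are alike in sequence, and how reads that match several of them were counted is not stated in the sources used here, so the split between HSPA1A, HSPA1L, HSPA6 and HSPA8 is uncertain. HSPA12B, an atypical member of blood vessel cells, was higher in R5 against R2 (0.96, adjusted p 0.0111, edgeR). HSPA14, which binds ribosomes, went the other way at 42.98, 49.8, 35.3 and 40.5 CPM in R2, 32.3, 29.1, 27.9 and 25.3 in R4 and 23.9, 16.8, 21.4 and 24.9 in R5, and fell by 0.56 in R4 and by 0.95 in R5 on the log2 scale. HSPA12A and the mitochondrial HSPA9 did not pass, with adjusted p of 0.576 and 0.318 over the numbers (edgeR).

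**Figure D3:**
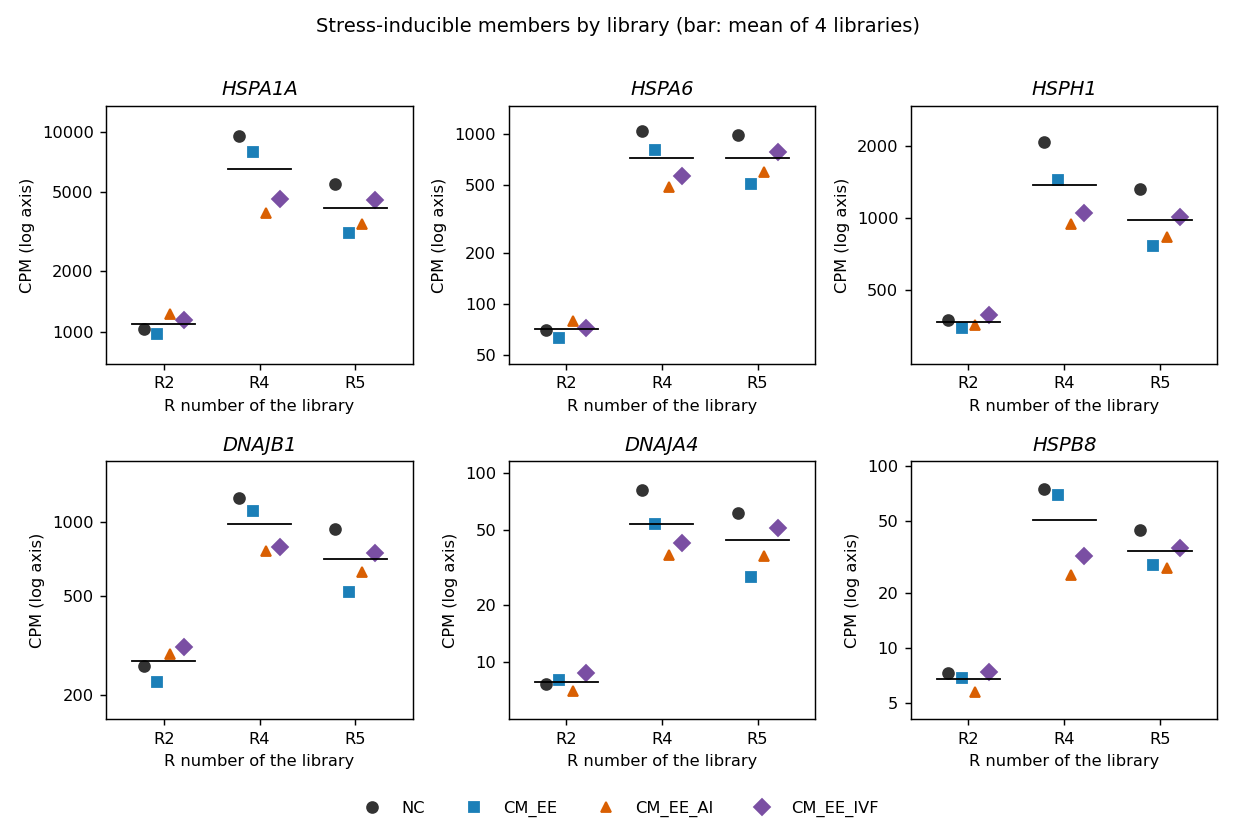
CPM on a log axis of 6 inducible members in the 12 libraries, by R number, with a symbol for each group and a bar for the mean of the 4 libraries of a number. The 4 R2 libraries lie together below all 8 others in each panel, and NC is the highest group in R4 and in R5.

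Of the co-chaperones, 2 of 4 DNAJA and 5 of 10 DNAJB genes were higher in R4 than in R2, and 2 and 4 in R5. DNAJA4 was at 7.67, 8.12, 7.09 and 8.75 CPM in R2, 81.5, 53.99, 36.7 and 42.7 in R4 and 61.2, 28.3, 36.3 and 51.2 in R5, and rose by 2.70 and 2.43 on the log2 scale (adjusted p 2.82e-05, edgeR). DNAJB1, the main inducible partner of HSPA1A, was at 260.1, 225, 293 and 313 CPM in R2, 1246, 1114, 762 and 795 in R4 and 939.8, 519, 626 and 749 in R5. It rose by 1.83 and 1.35 (adjusted p 0.000267, edgeR). No R2 library of either gene reached a library of R4 or R5. DNAJB4 was at 67.96, 73.2, 72.1 and 80.97 CPM in R2, 217, 147, 211 and 196 in R4 and 218, 136, 161 and 188 in R5 and rose by 1.37 and 1.23. DNAJA1, another partner of cytosolic HSP70, was at 62.5, 77.5, 66.4 and 73.5 CPM in R2, 185, 152, 152 and 140.2 in R4 and 160.1, 108, 113 and 129 in R5 and rose by 1.15 and 0.85. Both had all 4 R2 libraries below the others. DNAJB5 rose by 1.15 and 0.90, and DNAJB13, a protein of cilia and sperm tails, by 1.28 and 1.62. DNAJB13 stayed low, between 0.807 and 5.47 CPM. DNAJA2, DNAJA3, DNAJB2, DNAJB6, DNAJB12 and DNAJB14 did not pass the F test, DNAJB6, which keeps proteins from aggregating, with 60.1, 81.5, 58.2 and 67.6 CPM in R2, 84.7, 83.6, 62.3 and 59.7 in R4 and 62.2, 46.1, 50.7 and 52.97 in R5. The spans of HSPA4L, HSPA8, HSPA9, HSPA12A, HSPA14, DNAJA3, DNAJB1, DNAJB2, DNAJB4, DNAJB11, DNAJB12, DNAJC5G, DNAJC9, DNAJC10, DNAJC16, DNAJC17, DNAJC21 and DNAJC24 overlap another gene in the RefSeq annotation, and whether the counting used strand is not stated in the sources used here.

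Of the HSP90 genes, 2 of 3 were higher in R4 than in R2 and 1 in R5. HSP90AA1 was at 1778, 1955, 1693 and 2079 CPM in R2, 3742, 3524, 3172 and 3017 in R4 and 3367, 2269, 2547 and 2763 in R5, with log2 fold changes of 0.84 (SE 0.17) in R4 (adjusted p 0.00679) and 0.53 (SE 0.17) in R5 (adjusted p 0.044, edgeR). The call in R5 was lost in 11 of 12 fits that leave out 1 library, between 0.28 and 0.61, and with RLE factors. HSP90AB1, the constitutive form, was at 371, 429, 356 and 399 CPM in R2, 328, 403, 329 and 324 in R4 and 388, 268, 283 and 302 in R5, and did not pass (adjusted p 0.304, edgeR). DESeq2 called it lower in R5 than in R2. The difference between the 2 genes was not tested.

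The small heat shock proteins were higher in R4 for 3 of 5 members and in R5 for 1. HSPB8, which works with BAG3 in removing unfolded protein, was at 7.27, 6.82, 5.74 and 7.35 CPM in R2, 75.1, 69.5, 25.1 and 32.3 in R4 and 44.3, 28.7, 27.6 and 35.4 in R5, and rose by 2.78 (SE 0.26) and 2.30 (SE 0.26) (adjusted p 5.71e-05, edgeR). HSPB1, the ubiquitous inducible form, was at 162, 155, 161 and 142 CPM in R2, 340.4, 349, 296 and 332 in R4 and 315, 146, 179 and 215 in R5, a rise of 1.09 in R4 (adjusted p 0.00283), while R5 overlapped with R2 (adjusted p 0.145, edgeR). Its fall of 0.66 in R5 against R4 was lost in 7 of 12 fits that leave out 1 library. HSPB6, a form known from muscle, was at 24.3, 36.4, 21.3 and 34.5 CPM in R2, 70.5, 109, 336 and 134 in R4 and 58.6, 50.9, 27.9 and 33.9 in R5. Its highest library was CM_EE_AI R4, where the 6 smooth muscle and pericyte markers summed to 428 CPM, the second highest sum of the 12 libraries after 567 in CM_EE_IVF R4, and their part in the level of HSPB6 was not tested. HSPB6 rose by 2.38 (SE 0.45) in R4 against R2, and its fall of 1.80 in R5 against R4 was lost without CM_EE_AI R5 or CM_EE_IVF R5. HSPB11, a protein of ciliary transport, did not pass (adjusted p 0.114, edgeR), nor did HSPB2, at most 1.21 CPM and 0 in 2 libraries (adjusted p 0.15, edgeR).

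The mitochondrial chaperonins HSPD1 and HSPE1, which form 1 folding chamber and lie next to each other in the RefSeq assembly, had their highest means in R4. The libraries of R4 and R5 overlapped for both, and in NC HSPE1 was slightly higher in R5 than in R4. HSPD1 was at 164, 167, 160.2 and 202 CPM in R2, 395, 332, 397 and 314 in R4 and 314, 183, 196 and 262 in R5, and HSPE1 at 27.6, 25.2, 24.7 and 31.1, 29.5, 39.2, 60.2 and 48.6 and 30.4, 23.3, 22.9 and 25.95 CPM. HSPD1 rose by 1.05 (SE 0.18) in R4 against R2 and HSPE1 by 0.70 (SE 0.21). The call of HSPE1 was lost in 11 of 12 fits that leave out 1 library, between 0.47 and 0.90, and with RLE factors. Both fell in R5 against R4, by 0.61 and 0.77, calls that were lost in 7 and 6 of 12 such fits. Of the 10 mitochondrial chaperones listed, of which HSCB is not named by the rule, these 2 passed the F test. HSPA9, DNAJA3, DNAJC11, DNAJC15, DNAJC19, DNAJC28 and DNAJC30 had adjusted p between 0.212 and 0.917 (edgeR).

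The ER chaperones past the test were high in R4, while in R5 none of them differed from R2 past it, with DNAJC1 nearest to the threshold. HSPA5 was at 473, 505, 466 and 531 CPM in R2, 834, 952, 1512 and 1100.3 in R4 and 533, 280.0, 338 and 537 in R5, and all 4 R4 libraries lay above all 8 others. It rose by 1.14 (SE 0.24) in R4 against R2 (adjusted p 0.00704) and fell by 1.40 in R5 against R4 (adjusted p 0.00298), with -0.25 in R5 against R2 (adjusted p 0.522, edgeR). HSP90B1, the HSP90 of the ER, was at 499, 523, 497 and 553 CPM in R2, 708, 859, 1633 and 1143 in R4 and 575, 302, 389 and 534 in R5. It had 1.03 in R4 against R2 and -1.25 in R5 against R4 (adjusted p 0.0174 and 0.00722, edgeR), the former lost without NC R2, CM_EE R4, CM_EE_AI R2 or CM_EE_AI R4. The groups kept 1 order within R4 for both genes, with NC lowest and CM_EE_AI highest.

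DNAJB11 and DNAJB9, co-chaperones of HSPA5 in the ER, also had their 4 R4 libraries above all 8 others, which held for 7 members in all and 4.12% of all genes. DNAJB11 was at 13.8, 12.2, 14.8 and 14.7 CPM in R2, 19.04, 20.1, 36.7 and 21.3 in R4 and 13.5, 7.73, 8.73 and 14.00 in R5, and fell by 1.13 in R5 against R4 (adjusted p 0.00909, edgeR). Its rise of 0.79 in R4 against R2 was lost in 9 of 12 fits that leave out 1 library and with RLE factors. DNAJB9 was at 28.7, 28.4, 19.6 and 24.9 CPM in R2, 31.3, 43.4, 50.5 and 36.6 in R4 and 19.5, 16.04, 21.1 and 27.2 in R5. It fell by 0.95 in R5 against R4 (adjusted p 0.0129, edgeR), a call lost without CM_EE R4, CM_EE_AI R4 or CM_EE_AI R5. HSPA13, an HSP70 of microsomes, fell by 0.86 in R5 against R4 (adjusted p 0.0417, edgeR). In the list of 9 ER chaperones, 4 were higher in R4 than in R2, against 8.72% of all genes. Between R5 and R2, 0 differed, while DNAJC1, higher, and HSPA13, lower, had an unadjusted p under 0.05 (edgeR). In R5 against R4, 5 were lower, against 8.67% of all genes. DNAJC1, an ER membrane protein, rose in R4 against R2 (1.22) without a fall past the test in R5 against R4 (-0.51, adjusted p 0.199, edgeR). In R5 against R2 it stood at 0.72 and missed the threshold (adjusted p 0.0554, edgeR), and its 4 R2 libraries lay below all 8 others. DNAJC3, DNAJC10 and DNAJC25 passed neither R4 against R2 nor R5 against R4. Of the 6 luteal markers, 3 were higher in R4 than in R2 and 4 were lower in R5 than in R4, while LHCGR, the receptor for luteinising hormone, was higher in R5 than in R4 (log2 fold change 1.00, adjusted p 0.0144, edgeR). Within R4, their sum had the same order of groups as HSPA5 and HSP90B1. It was 1628, 3013, 6159 and 3505 CPM in NC, CM_EE, CM_EE_AI and CM_EE_IVF. In R2 and R5 the orders differed. The sum was lowest in CM_EE in R2, where both genes were lowest in CM_EE_AI. In R5 it was highest in CM_EE_AI, while HSPA5 was highest in CM_EE_IVF and HSP90B1 in NC. The part of these markers in the level of the ER chaperones was not tested.

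**Figure D4:**
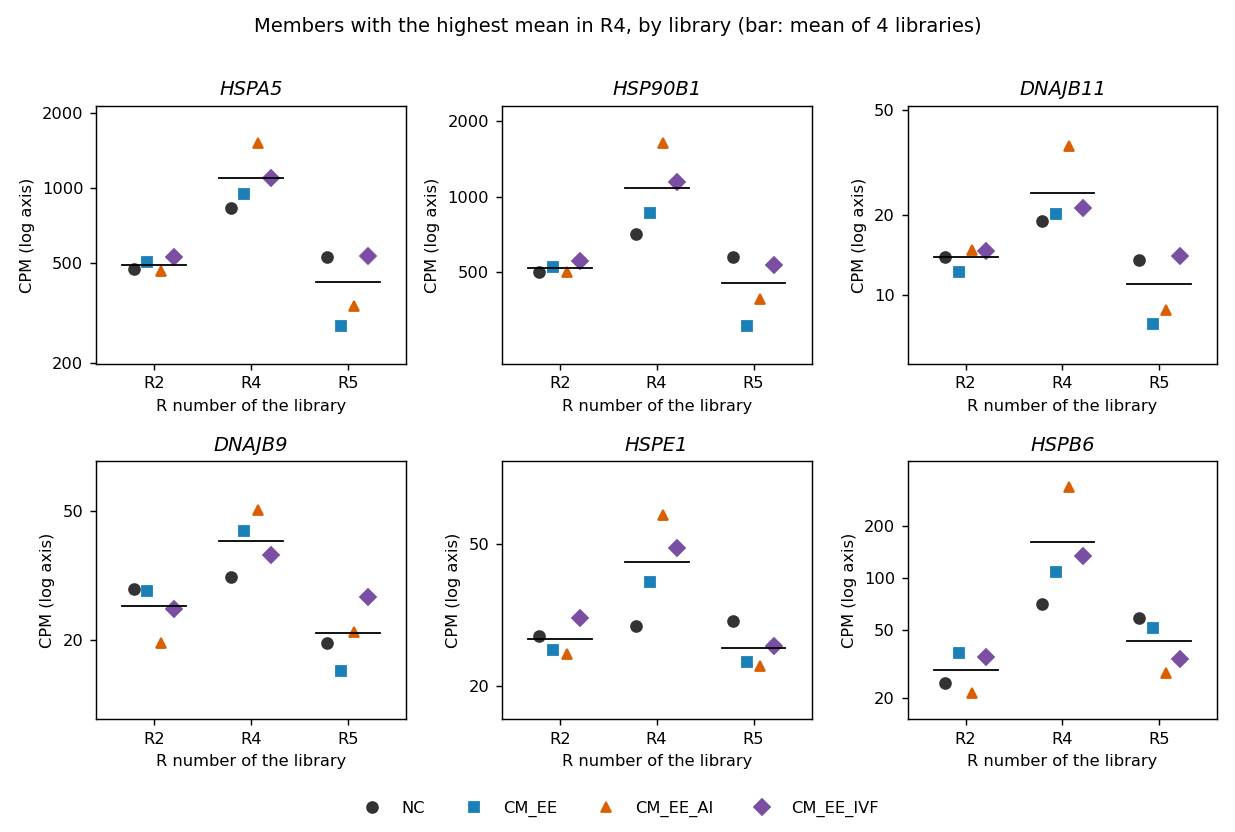
CPM on a log axis of 4 ER chaperones, the mitochondrial HSPE1 and the small heat shock protein HSPB6 in the 12 libraries, by R number, with a symbol for each group and a bar for the mean of the 4 libraries of a number. The R4 mean is the highest in each panel, and CM_EE_AI R4 is the highest single library in each.

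Most DNAJC co-chaperones, a varied group that recruits HSP70 to special tasks, did not pass the test between the numbers. Of 26 tested, 5 passed the F test, or 19.2%, which is near the 26.7% of all genes. DNAJC27 rose in R4 (1.42, adjusted p 0.0122, edgeR), and DNAJC2, which sits at the ribosome, and DNAJC7, which links HSP70 and HSP90, rose in R5 (0.57 and 0.63, adjusted p 0.0141 and 0.0122, edgeR). DNAJC6, the auxilin that uncoats clathrin vesicles in neurons, was at 12.9, 10.01, 10.3 and 8.07 CPM in R2, 3.91, 4.04, 4.36 and 5.05 in R4 and 2.67, 5.93, 4.34 and 3.90 in R5. It fell by 1.25 and 1.32 on the log2 scale, and all 4 R2 libraries lay above the others. DNAJC13, on endosomes, varied least among the members, between 50.2 and 74.4 CPM, a 1.48-fold range over the 12 libraries, against 16.6-fold for HSPA6. DNAJC12 was between 1.64 and 4.35 CPM and DNAJC3, an ER co-chaperone, between 38.7 and 72.02 CPM, and neither passed (adjusted p 0.251 and 0.197, edgeR). DNAJC5, which chaperones proteins of secretory vesicles, was at 7.42, 11.5, 9.33 and 11.7 CPM in R2, 12.6, 15.8, 14.9 and 13.2 in R4 and 9.26, 6.90, 10.98 and 8.91 in R5 and missed the threshold (adjusted p 0.064, edgeR). DNAJC4, DNAJC8, DNAJC9, DNAJC14, DNAJC17, DNAJC18 and DNAJC21 had adjusted p between 0.103 and 0.755 (edgeR), with DNAJC21, a factor of ribosome assembly, at 15.7 to 30.5 CPM and DNAJC4 at 0.201 to 2.82 CPM.

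The list of HSF1 target chaperones, taken from textbook knowledge, cuts across these families. It was chosen with earlier results of these data known, so its counts are a description and no independent support. Of its 13 genes in the table, 11 were higher in R4 than in R2 and 9 in R5 than in R2, and 12 passed the F test, all except HSP90AB1. The shares of all genes were 8.72%, 11.5% and 26.7% in the same order. Their summed level was 5343 to 5856 CPM in R2, 12732 to 21418 in R4 and 9286 to 15769 in R5. The 51 other members tested summed to 1799 to 2044 CPM in R2, 3111 to 4851 in R4 and 1541 to 2349 in R5, with R5 overlapping R2. Of these 51, 13 were higher and 2 lower in R4, and 10 higher and 2 lower in R5. Over all genes, 8.72% were higher and 4.93% lower in R4, and 11.5% higher and 9.26% lower in R5. HSPA1B, the remaining gene of the list, is not analysed here.

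Set against NC within each number, the HSF1 targets were lower in the conditioned medium groups in R5 and, for most genes, in R4, and lay on both sides of 0 in R2. Each such ratio rests on 1 library on either side, and the 3 ratios of a number share the NC library, so the ratios of a single number have no test. Over the 3 numbers together, 0 of 64 members passed against NC in a model of groups with the R number as a block, nor did any other gene. In R5, 13 of 13 targets were lower in each of the 3 groups, with a median log2 ratio of -0.78 in CM_EE, -0.51 in CM_EE_AI and -0.31 in CM_EE_IVF. Over all genes the medians were -0.094, 0.018 and -0.00055, with 10580, 9094 and 9477 of 18939 genes lower. The 51 members that are not HSF1 targets were mostly lower in R5 as well, 38, 36 and 37 of them, with medians of -0.32, -0.11 and -0.14. In R4, 10, 9 and 12 of 13 were lower, with medians of -0.25, -0.20 and -0.32, while 9538, 9500 and 8960 of all 18939 genes were lower, with medians of -0.0054, -0.0066 and 0.047. In R2, 8, 7 and 3 of 13 were lower, with medians of -0.063, -0.010 and 0.14, beside 9658, 9402 and 9570 of all genes, with medians of -0.0093, 0.0031 and -0.0076. HSPA1A, for example, had log2 ratios of -0.084, 0.24 and 0.14 in R2, -0.26, -1.29 and -1.06 in R4 and -0.81, -0.67 and -0.27 in R5, in CM_EE, CM_EE_AI and CM_EE_IVF. HSPE1 stood above 0 in all 3 groups of R4, at 0.41, 1.03 and 0.72.

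**Figure D5:**
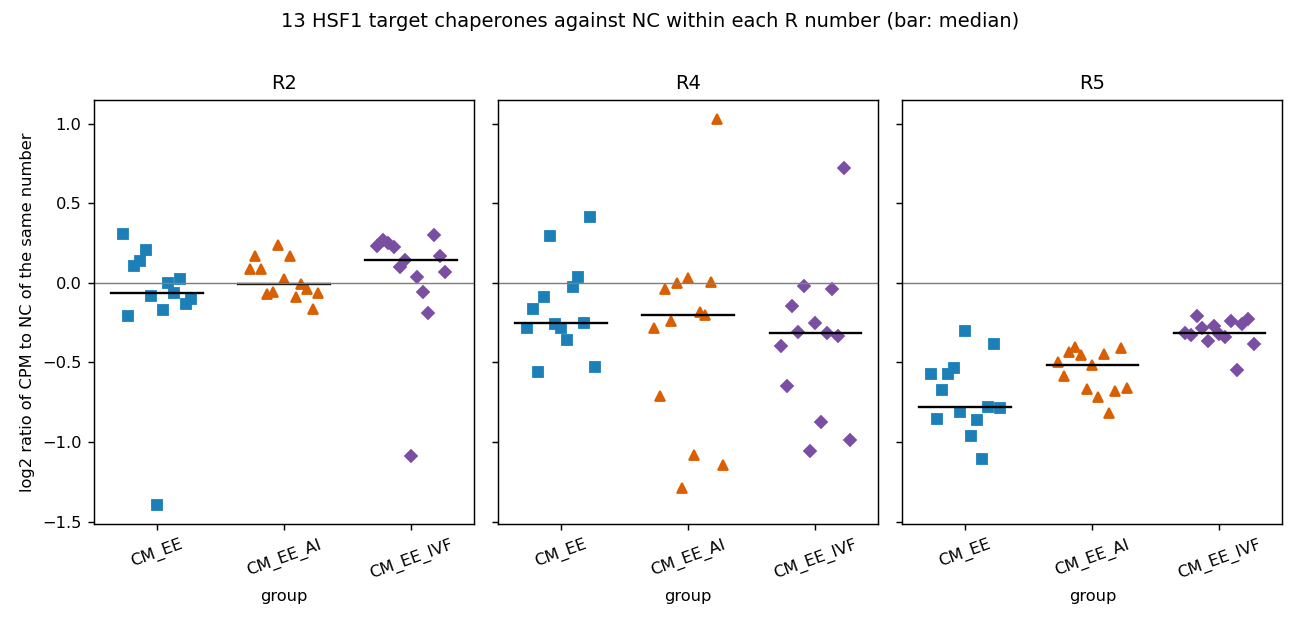
Log2 ratio of CPM to the NC library of the same number for the 13 HSF1 target chaperones (points, 1 per gene, in alphabetical order within a group) in the 3 conditioned medium groups, by R number, with a bar for the median. All 39 points of R5 lie below 0, while those of R2 lie on both sides of it, and the 13 genes are not independent replicates.

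HSPA5, HSP90B1, DNAJB11 and DNAJB9, by contrast, were lowest in NC among the R4 libraries. The median of the 9 ER chaperones as a log2 ratio to NC in R4 was 0.081 in CM_EE, 0.86 in CM_EE_AI and 0.23 in CM_EE_IVF. In R5 it was -0.42, -0.20 and 0.011, and in R2 0.093, -0.022 and 0.10. The 10 mitochondrial chaperones had medians of 0.23, 0.74 and 0.40 in R4, with 2, 0 and 2 of 10 below NC. In R5 their medians were -0.51, -0.21 and -0.19, with 8, 7 and 9 of 10 below NC, and in R2 -0.054, -0.047 and 0.21, with 5, 6 and 3 of 10 below it. In the single comparison of CM_EE_AI with NC in R4, HSPA1A had -1.29 while HSPA5 had 0.86 and HSPE1 1.03, and the summed luteal markers were 1628 CPM in NC and 6159 CPM in CM_EE_AI.

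Over the 12 libraries, levels of most inducible members were closely alike. After each group was centred on its mean, log2 CPM of DNAJB1 was most like that of HSPA1A (Pearson's r 0.996), HSPH1 (0.995), HSPB8 (0.989), DNAJA4 (0.977) and HSPA4 (0.972). HSPB8, DNAJA4 and HSPA4 are not in the list of HSF1 targets used here. The member least like it was DNAJC6 (-0.922). HSPA5 was most like HSP90B1 (0.991), DNAJB11 (0.977), HSPE1 (0.925), DNAJB9 (0.921) and HSPB6 (0.870), and least like DNAJC5B (-0.712). The median r was 0.854 over the 78 pairs of HSF1 targets, 0.604 over the 36 pairs of ER chaperones and 0.287 over the 2016 pairs of all members. Over the 117 pairs of an HSF1 target with an ER chaperone it was 0.452. HSP90AB1 stood apart from the other targets, with a median r of -0.366. HSPE1 and HSPA4L were also less like the rest, with medians of 0.440 and 0.651. These values describe 12 libraries that share 3 numbers and a scaling.

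The other genes of the pathway, which are no members, were read from a list of 39, of which CRYAA is not analysed here. In R4 against R2, 15 of 38 were higher and 1 lower, and in R5 against R2, 7 were higher and 1 lower. In R5 against R4, 0 were higher and 9 lower. The shares of all genes were 8.72% higher and 4.93% lower in R4 against R2. They were 11.5% and 9.26% in R5 against R2 and 5.58% and 8.67% in R5 against R4. CRYAB, a small heat shock protein outside the naming rule, was at 2.56, 2.99, 3.23 and 4.08 CPM in R2, 91.3, 73.4, 68.00 and 78.4 in R4 and 87.2, 30.2, 50.9 and 70.3 in R5, a larger rise than that of any member, by 4.59 (SE 0.27) and 4.14 (SE 0.27) (adjusted p 4.16e-06, edgeR). BAG3, the exchange factor that HSPB8 works with, was at 98.4, 117, 121 and 116 CPM in R2, 705, 516, 311 and 374 in R4 and 450.3, 249, 298 and 365 in R5. Among HSP90 partners, CACYBP rose by 1.94 in R4 (adjusted p 3.86e-05) and 1.72 in R5 (adjusted p 4.57e-05, edgeR). FKBP4 had 1.85 and 1.12 (adjusted p 0.000344 and 0.00449, edgeR), and AHSA1, which speeds up the HSP90 cycle, 1.26 and 0.98 (adjusted p 0.0019 and 0.00515, edgeR). HSF1 itself was between 12.4 and 19.02 CPM and did not pass (adjusted p 0.935, edgeR). HSF2 fell by 1.00 in R5 against R4 (adjusted p 0.00224, edgeR). TCP1, CCT2, CCT4, CCT6A and CCT7, of the cytosolic chaperonin ring, fell in R5 against R4 by 0.59 to 0.79. In the 6 comparisons of the groups, 0 of 38 passed, with 0 or 1 at an unadjusted p under 0.05.

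Immediate early genes, which respond within minutes to many stimuli, are given beside the inducible members. The 8 genes summed to 784 to 1026 CPM in R2, 1628 to 2510.0 in R4 and 512 to 911 in R5. In R4 against R2, 4 of 8 were higher, in R5 against R2, 3 of 8 were lower, and in R5 against R4, 7 of 8 were lower. The shares of all genes were 8.72%, 9.26% and 8.67% in the same order. EGR1 was at 51.7, 73.8, 94.2 and 85.6 CPM in R2, 231, 349, 417 and 328 in R4 and 90.5, 45.3, 49.3 and 56.4 in R5. These genes were high in R4 and not in R5, whereas HSPA1A and HSPA6 were high in both, and their part in the level of the inducible members was not tested.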

How the data were processed

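RNA of bovine corpus luteum was sequenced in 4 groups of 3 libraries. The deposited table holds whole-number gene counts, as the authors made them. Columns whose names start with End were named expected counts for a check of units only, since all deposited values are whole, and nothing was rounded. Per the submitters' processing notes, Trim Galore, cutadapt, STAR, featureCounts and DESeq2 were used, without versions. Settings, strand and genome build are not stated in the sources used here. A kit stated in the labels refers to endometrial explants. The endometrial tables were not used here, because their identifiers are not paired with symbols.

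Genes that edgeR's filterByExpr kept (18939 of 19112) were tested in R 4.3.3 with edgeR 4.0.16 (TMM factors, quasi-likelihood test, Benjamini-Hochberg adjustment over all genes, threshold 0.05), once with the 4 groups and once with groups and R numbers. The 12 libraries held 16536797 to 25747637 counts, and no pair within a group was identical (0 of 12 pairs). With 3 libraries a group, the biological coefficient of variation was 0.519 over the groups and 0.389 with the numbers in the model, and the median SE of a member's log2 fold change was 0.424 to 0.425 between groups. Ratios within a number were taken on log2(CPM + 0.1), and likeness on group-centred log2 CPM with a prior count of 2. Of the 65 members, 64 matched a symbol of the RefSeq assembly ARS-UCD2.0, used for names and neighbours only. The members and gene lists were chosen with earlier results of these data known. The members named are a panel of 26 (HSPB7 is not analysed here), the 4 of lowest p in each comparison of groups, the 10 of lowest p between numbers, and in each role the 3 of highest and the 1 of lowest mean CPM; the others named were chosen after their values were seen. Alternatives were DESeq2 1.42.0, RLE factors, no filter, scaling without mitochondrial and ribosomal RNA, the R number as a block and each library left out, and, added after seeing the data, R4 and R5 alone and scaling without the members. The edgeR fits with groups and with groups and R numbers were first tested on simulated data, and the remaining alternatives were not simulated. The simulated counts had the spread of the model with numbers. For the fit of groups they held no difference between numbers, so that simulation had less spread than the data.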

Additional observations from a re-analysis of the deposited data

Results flagged for a closer look

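Within each number, the 4 libraries of each member named by rule were searched for 1 that stood far from the other 3, and 7 of 126 sets had such a library, where chance gives about 1 in 20. HSP90AB1 was at 403 CPM in CM_EE R4, above 324 to 329 in the other R4 libraries. DNAJB11 was at 36.7 CPM in CM_EE_AI R4, above 19.0 to 21.3. HSPD1 was at 202 CPM in CM_EE_IVF R2, above 160.2 to 167 in R2. DNAJA2 was at 27.3 CPM in CM_EE_AI R2, below 35.3 to 35.8. In R5, DNAJA3 was at 18.04 CPM in CM_EE_AI, above 13.1 to 13.9, and DNAJC5B was at 2.11 CPM in CM_EE, above 0.716 to 0.732. DNAJC27 was at 5.65 CPM in NC R5, below 6.59 to 6.63.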

How the results depend on the processing

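Outside the fits that leave out a library, the counts of members past the threshold and the median log2 fold changes of the members kept their side and direction, or moved within the spread between libraries, in all 92 values, and so did 662 values of single members and counts over all genes, while 2 turned sign, 8 lost and 5 gained a call. HSPA6 in R5 against R4 turned from -0.010 to 0.0052 when scaled without mitochondrial and ribosomal RNA, and DNAJC5B in CM_EE_IVF against CM_EE_AI from -1.81 to 0.78 in R4 and R5 alone. RLE factors, and scaling without mitochondrial and ribosomal RNA and the members, each lost the calls of HSPE1 and DNAJB11 in R4 against R2 and of HSPA2 and HSP90AA1 in R5 against R2. DESeq2 called HSP90AB1 lower in R5 than in R2, and HSPA1A and HSPA4 lower in R5 than in R4. In R4 and R5 alone, 1 gene over all genes, no member, passed in CM_EE_AI and in CM_EE_IVF against CM_EE. Scaling without mitochondrial and ribosomal RNA moved the median of all genes in R5 against R4 to 0.10. The cause of these changes was not tested.

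Leaving out 1 library at a time, 13 to 22 members passed in R5 against R2, 3 to 12 in R5 against R4, 20 to 25 in R4 against R2 and 24 to 33 in the F test. Between groups, 0 members and 0 of all genes passed in these fits. Some log2 fold changes turned sign in such fits. In CM_EE against NC, DNAJB1 ranged from -1.13 to 0.046, HSPA1A from -1.39 to 0.31, HSPA5 from -0.64 to 0.23 and HSPH1 from -1.18 to 0.010. In CM_EE_AI against CM_EE, DNAJB11 ranged from -0.19 to 1.01. In CM_EE_AI against NC, HSPA5 ranged from -0.61 to 0.69. In CM_EE_IVF against CM_EE_AI, DNAJC27 ranged from -0.98 to 0.37 and DNAJC5B from -2.76 to 0.045. In CM_EE_IVF against NC, DNAJB1 ranged from -0.83 to 0.045, HSPA1A from -1.16 to 0.075 and HSPA5 from -0.20 to 0.52. In R4 against R2, DNAJB6 ranged from -0.12 to 0.20 and DNAJC12 from -0.42 to 0.031. In R5 against R2, DNAJC3 ranged from -0.11 to 0.26, HSPB6 from -0.0034 to 0.86 and HSPE1 from -0.41 to 0.031. In R5 against R4, HSPA1L ranged from -0.28 to 0.50 and HSPA6 from -0.16 to 0.17. None of these values passed the test with all libraries. Fewer libraries also mean fewer degrees of freedom in these fits.

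The labels do not say that a number marks a shared animal or day. Deviations from the group means correlated over 0.1 in 15 of 18 pairs of libraries with the same number (0.0813 to 0.662), against -0.490 to 0.198 in 36 pairs with different numbers, and 12 of 12 libraries correlated best with their own number, a hint from the data and not from the design. With the R number as a replicate block, 0 of 64 members passed in each of the 6 comparisons of groups, nor did any other gene. Depth limited members of a few CPM or less, such as DNAJC5B and HSPB2, most.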
